A study of Mus musculus with 9 samples.

Results

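Ccng1, Mdm2, Cdkn1a and Rrm2b are direct target genes of the transcription factor p53, and their RNA was read here through the repeat copies that lie inside them. A repeat copy is 1 annotated insertion of a transposable element (TE), and the table analysed here lists read counts for 623916 such copies and for no genes. The 102 copies lying wholly inside the 4 genes, with each gene model of the mm10 genome widened outward to full kilobases, were taken by their position. Their counts were summed into 1 value per gene. The gene models are chr11:40748552-40755311 (minus strand) for Ccng1 with 10 copies, chr10:117688875-117710758 (minus) for Mdm2 with 44, chr17:29090976-29100727 (plus) for Cdkn1a with 15 and chr15:37923952-37961318 (minus) for Rrm2b with 33. By class, 83 copies were SINEs, 10 were LTR elements, 7 were LINEs and 2 were DNA transposons.

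The libraries were made from total RNA of mouse embryonic stem cells (ESCs) of the C57BL/6 strain, after feeder cells had been taken away. There were 3 libraries of wild-type (WT) cells, 3 of G1 Terc-/- cells and 3 of G4 Terc-/- cells. Terc is the RNA part of telomerase, and without it telomeres lose length from one mouse generation to the next. Per the study's methods G1 cells came from crosses of Terc+/- parents and G4 cells from embryos of third-generation Terc-/- mice, and the comparison asks how the shorter telomeres of the later generation go with transcription. Generation and cell line cannot be told apart in this design, since each generation stands for its own derivation of cells. The labels do not say whether the 3 libraries of a group came from separate cultures, so a p-value covers only the scatter among these libraries, which may be technical. Terc overlapped 0 of the listed copies and could not be measured, so the groups rest on the labels.

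The total of a library ran from 918879 to 1137257 counts. Levels are given in CPM, counts per 1000000 counts of the whole table, scaled by the TMM factors of edgeR. A change is a log2 fold change from edgeR's quasi-likelihood fit over all 9 libraries, and it was called at an adjusted p under 0.05 over all 10497 gene sums tested. The labelled cell type showed in Tdgf1, L1td1 and Tfcp2l1, pluripotency markers with group means of 1289 CPM or more in every group, while Pou5f1 and Sox2 could not be tested through repeats. Of 11 pluripotency markers tested, 6 were higher and 1 was lower in G4 than in WT, against 20.2% and 19.6% of all gene sums.

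p53 is held low in unstressed cells by Mdm2, a ubiquitin ligase that marks it for destruction and is itself a p53 target, which closes a negative feedback loop. After DNA damage or telomere uncapping, kinases release p53 from Mdm2, and p53 then switches on genes for cell cycle arrest, repair and cell death. Cdkn1a encodes p21, the cyclin-dependent kinase inhibitor through which p53 halts the cell cycle. Ccng1 encodes cyclin G1, which acts with a phosphatase on Mdm2. Rrm2b encodes p53R2, the small subunit of ribonucleotide reductase that supplies deoxynucleotides for repair outside S phase. In mouse ESCs p53 is known to act on pluripotency genes as well.

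Promoters from RefSeq (GRCm38.p6, the mm10 assembly) were on hand for 3 of the 4 genes and are shown for these. Rrm2b had no entry. Each run below is the 250 bases before the transcription start on the gene's own strand, read 5′ to 3′. Capitals mark matches to the p53 decamer, the 10-base unit that occurs as a pair in p53 response elements. The decamer reads the same on both strands, so 1 search covers both.

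Ccng1 (chr11:40755287-40755536, minus strand): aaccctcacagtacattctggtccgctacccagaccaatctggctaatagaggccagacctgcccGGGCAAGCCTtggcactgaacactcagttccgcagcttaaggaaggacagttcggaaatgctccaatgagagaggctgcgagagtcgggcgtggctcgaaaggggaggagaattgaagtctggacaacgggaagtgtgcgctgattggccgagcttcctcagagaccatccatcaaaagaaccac

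Mdm2 (chr10:117710759-117711008, minus strand): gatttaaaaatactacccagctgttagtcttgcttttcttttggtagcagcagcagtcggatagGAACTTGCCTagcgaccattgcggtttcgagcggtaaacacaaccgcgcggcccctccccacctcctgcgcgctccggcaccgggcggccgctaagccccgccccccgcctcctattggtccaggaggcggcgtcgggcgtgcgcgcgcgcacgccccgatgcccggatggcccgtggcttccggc

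Cdkn1a (chr17:29090729-29090978, plus strand): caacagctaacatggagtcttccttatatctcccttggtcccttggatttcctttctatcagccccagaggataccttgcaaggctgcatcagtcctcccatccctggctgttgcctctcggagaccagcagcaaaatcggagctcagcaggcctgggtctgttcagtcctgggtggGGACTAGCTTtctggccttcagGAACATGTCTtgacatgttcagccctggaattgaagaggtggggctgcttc

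Ccng1 and Mdm2 each held 1 decamer. Cdkn1a held 2 that lay close enough to count as 1 paired element with a spacer of at most 13 bases. Only exact matches within these windows were marked, and the rest of each gene, introns included, was not searched. In Cdkn1a the bases right after the second decamer, tgacatgttc, miss the pattern at 1 base and are left in small letters. Which of these pairs p53 uses was not tested. A second annotated start of Cdkn1a, with its window at chr17:29093519-29093768, held 0. At least 1 decamer was found in 7.13% of 32851 promoter windows of this length and a paired element in 0.0639%. These are letter matches, not measured binding.

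In G4 Terc-/- ESCs the repeat reads of Ccng1, Mdm2 and Cdkn1a were lower than in WT and those of Rrm2b were higher. All 4 genes were called, against 39.8% of all gene sums (20.2% higher and 19.6% lower). The G4 and WT libraries did not overlap in any of the 4, as in 47.4% of all gene sums. The median change over all gene sums was -0.004 on the log2 scale.

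Among the regulators of p53, Mdm2 stood at 1183, 1286 and 1215 CPM in the 3 WT libraries, at 1231, 1119.7 and 1174 in G1 and at 666, 779 and 778 in G4. WT and G1 libraries overlapped, and every G4 library lay below both. The change in G4 against WT was -0.73 (SE 0.1, 95% interval -0.93 to -0.53, adjusted p = 1.25e-07), a 1.66-fold lower level.

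Ccng1 stood at 1709, 1845 and 1839 CPM in WT, at 1567, 1489 and 1420.5 in G1 and at 666, 830.1 and 891 in G4. The 3 groups did not overlap, with G4 lowest. The change in G4 against WT was -1.18 (SE 0.103, interval -1.38 to -0.97, adjusted p = 2.42e-12), a 2.26-fold lower level and the steepest of the 3 falls.

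Cdkn1a, the arrest gene, stood at 489, 692 and 611 CPM in WT, at 523, 403 and 522 in G1 and at 356, 429 and 410 in G4. The WT libraries were the most scattered, with an SD of 102 CPM around 597, and G1 overlapped both other groups. The change in G4 against WT was -0.58 (SE 0.123, interval -0.83 to -0.33, adjusted p = 0.000183), a 1.5-fold lower level.

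Rrm2b, the nucleotide supply gene, stood at 40.7, 41.7 and 29.4 CPM in WT, at 51.1, 55.3 and 66.4 in G1 and at 123, 135 and 157 in G4. It was the gene with the fewest reads, and its 3 groups did not overlap, in the order WT, G1, G4. The change in G4 against WT was 1.9 (SE 0.197, interval 1.5 to 2.29, adjusted p = 2.13e-10), a 3.72-fold higher level.

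**Figure D1:**
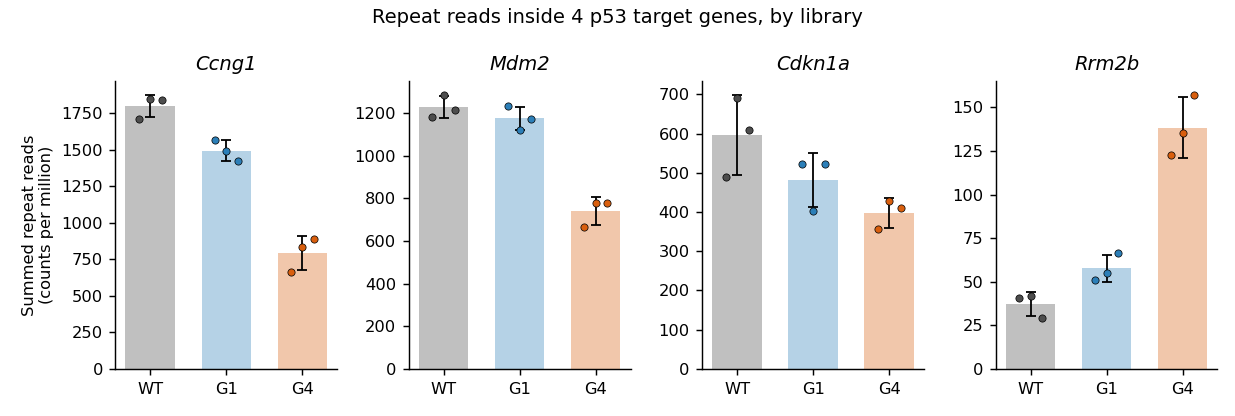
Summed repeat reads inside each gene (CPM, linear axes from 0) in WT, G1 Terc-/- and G4 Terc-/- ESCs. Bars are means of 3 libraries, error bars 1 SD and points single libraries. The G4 points of Ccng1, Mdm2 and Cdkn1a lie below all WT points, and those of Rrm2b, from 123 to 157, lie above.

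G4 cells also differed from WT in markers of cell type, and these values stand beside the falls and the rise above. Primitive endoderm markers summed to 5586 to 5846 CPM in WT, 2380 to 2518 in G1 and 190 to 207 in G4. Of 12 tested markers, 11 were lower in G4 and 10 in G1, against 19.6% and 3.75% of all gene sums. Gata4, a transcription factor of that lineage, went from 850 CPM in WT to 22.8 in G4, and Sox17, Afp, Amn and Ttr were near 0 throughout, at means of 0.3 counts or fewer. Pluripotency markers summed to 13706 to 14782 CPM in WT, 18035 to 19804 in G1 and 27465 to 36667 in G4. Tdgf1, the co-receptor of Nodal, went from 4406 CPM in WT to 17366 in G4 and so made up most of that rise. Cdh1, the adhesion protein E-cadherin, was lower by -1.22, and L1td1, Lin28a, Dppa4 and Sall4 were not called. Cdh1, Lin28a, Dppa4 and Sall4 were named after their values were seen. Feeder fibroblast markers summed to 187 to 209 CPM in WT, 208 to 260 in G1 and 351 to 420 in G4. Of the 6 tested, 3 were higher in G4 (Col1a1, Fn1 and, named after its value was seen, Prrx1), against 20.2% of all gene sums. The other 3 were not called. Sparc, among the latter, stood at -0.46 to -0.25 with 1 library left out. It stood at -1.76 with copies outside exons alone and at 2.02 with exonic copies alone. In G1 against WT 2 of the 6 were higher and 1 was lower, against 1.96% and 3.75% of all gene sums. Col1a2, Dcn and S100a4 had means of 0.4 counts or fewer. The part of these markers in the changes of the 4 genes was not tested. In bulk RNA, fewer cells of a type and less RNA per cell cannot be told apart.

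In G1 Terc-/- ESCs none of the 4 genes was called against WT, where 5.72% of all gene sums were (1.96% higher and 3.75% lower). Their unadjusted p was under 0.05 for 3 of the 4, as for 18.6% of all gene sums. The libraries of Ccng1 and Rrm2b did not overlap between G1 and WT, as in 23.6% of all gene sums. Ccng1 was at -0.27 (interval -0.47 to -0.06, adjusted p = 0.116), Cdkn1a at -0.31 (interval -0.56 to -0.06, adjusted p = 0.142) and Mdm2 at -0.06 (interval -0.26 to 0.13, adjusted p = 0.794). Rrm2b was at 0.63 (interval 0.2 to 1.07, adjusted p = 0.0765), with G1 libraries all above WT. Some of these values lay near the threshold. Ccng1 was called at -0.28 without G4 replicate 1 (adjusted p = 0.0115) and at -0.27 in a fit of WT and G1 alone (adjusted p = 0.0223). Cdkn1a was called at -0.45 without WT replicate 1 (adjusted p = 0.0206), the lowest of the 3 WT libraries.

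Between the generations, 3 of the 4 genes were called in G4 against G1, where 34.6% of all gene sums were (17.5% higher and 17.1% lower). In the same 3 the G4 and G1 libraries did not overlap, as in 45.3% of all gene sums. Ccng1 was lower by -0.91 (SE 0.103, interval -1.12 to -0.7, adjusted p = 3.26e-09) and Mdm2 by -0.66 (SE 0.1, interval -0.87 to -0.46, adjusted p = 1.17e-06). Rrm2b was higher by 1.26 (SE 0.184, interval 0.89 to 1.64, adjusted p = 6.74e-07). Cdkn1a was at -0.27 (interval -0.52 to -0.02, adjusted p = 0.0832) with overlapping libraries, and it was called at -0.4 without G1 replicate 2 (adjusted p = 0.0276). The 3 comparisons share libraries, so their values stand side by side and do not count as independent.

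**Figure D2:**
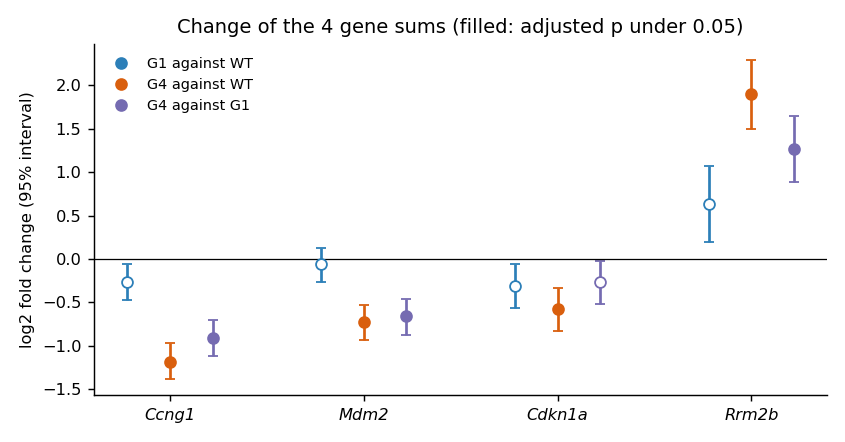
Log2 fold change of the summed repeat reads of each gene in the 3 comparisons, with 95% intervals (vertical axis, log2 scale). Filled points are past an adjusted p of 0.05. All 4 genes are filled in G4 against WT, from -1.18 for Ccng1 to 1.9 for Rrm2b, and none in G1 against WT.

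Most of these reads came from a few short copies in the 3′ untranslated region (3′ UTR) of each messenger RNA, the part after the stop codon. Per kilobase of copy, the 3′ UTR copies stood at 8231 CPM in WT for Ccng1, 4966 for Mdm2, 2897 for Cdkn1a and 52.5 for Rrm2b. Intronic copies, which are removed by splicing, stood far lower per kilobase, at 43.6 CPM for Ccng1, 54.8 for Mdm2, 45.8 for Cdkn1a and 2.38 for Rrm2b. In G4 the 3′ UTR levels were 3627 (SD 533), 3098 (SD 487), 1963 (SD 176) and 254 CPM per kilobase (SD 14.4). The order of the 4 was the same, but Ccng1 and Mdm2 were then no further apart than the spread of their libraries. Of the 102 copies 28 passed the filter on low counts and were tested one by one among 13278 copies. The 40 that averaged 5 counts or more per library are named below. Copies of the same gene are not replicates of each other.

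Ccng1 was read almost wholly through a pair of SINEs in the 3′ UTR of its transcript Ccng1-201. RSINE1 at chr11:40749908-40749996 gave 45.7% of the gene's counts, with 798, 739 and 884 counts in WT, 700, 744 and 613 in G1 and 298, 386 and 444 in G4. B1_Mur2 at chr11:40750060-40750184 gave 52.2%, with 853, 898 and 1017 counts in WT, 741, 896 and 702 in G1 and 353, 453 and 485 in G4. Every G4 library lay below every WT and G1 library in both copies. Both changed by -1.18 in G4 against WT (SE 0.09, adjusted p = 1.32e-10 for RSINE1 and 2.24e-11 for B1_Mur2). The values in G1 were -0.25 and -0.26 (adjusted p = 0.106 and 0.0575).

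The other named copies of Ccng1 were in introns and held few reads. RSINE1 at chr11:40753214-40753369 had a mean of 9 counts and was called at -1.31 (SE 0.52, adjusted p = 0.0424) in G4 against WT. That call was lost without WT replicate 1 or 2 or G4 replicate 2 or 3, with values from -1.56 to -0.9. It was lost as well with the replicate block (-1.29, adjusted p = 0.0692), library totals, the looser filter and DESeq2, with adjusted p up to 0.216. RSINE1 at chr11:40752817-40752953, B1_Mur2 at chr11:40753024-40753163 and B3A at chr11:40753571-40753740 had means of 5.33 to 6.44 counts and were not tested. The 4 copies below the naming limit had 2 to 6 counts each over all 9 libraries. The 3 tested copies of Ccng1 were all called lower in G4, against 42.5% of all copies called in either direction and 21.3% called lower.

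Mdm2 had 1 dominant copy and many sparse ones. RSINE1 at chr10:117689541-117689717, in the 3′ UTR of Mdm2-201, Mdm2-202 and Mdm2-209, gave 72.7% of the counts. It held 822, 847 and 916 counts in WT, 848, 914 and 811 in G1 and 452, 602 and 655 in G4. WT and G1 lay together, with G1 at -0.02 against WT (adjusted p = 0.939), and G4 lay below both at -0.68 against WT (SE 0.09, adjusted p = 5.32e-07).

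Of the 19 tested copies of Mdm2, 8 were called lower in G4 than in WT and 0 higher, and all 19 values lay below 0, from -1.9 to -0.28 with a median of -1. Of all tested copies 42.5% were called in either direction, 21.3% were called lower and 50.7% lay below 0. The copies belong to 1 gene and are not replicates of each other. Antisense and sense copies were both low, with medians of -1.02 over 13 antisense copies and -0.84 over 6 sense ones. The kit does not mark strand, so a copy's own orientation does not tell which strand was read.

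The largest fall of a single Mdm2 copy was in B3 at chr10:117702045-117702153, in an intron, at -1.9 (SE 0.57, adjusted p = 0.00875) with 13, 13 and 14 counts in WT, 4, 11 and 5 in G1 and 3, 7 and 1 in G4. ORR1A4, an LTR copy in an intron at chr10:117697595-117697944, fell by 1.53 (SE 0.43, adjusted p = 0.00554). B3A at chr10:117696156-117696327 fell by 1.39 (SE 0.36, adjusted p = 0.00299). B3A and URR1B at chr10:117695735-117695899 lie in exons of Mdm2-205, an alternative transcript, and URR1B stood at -1.54 (adjusted p = 0.0586). The other called copies, all in introns, were B1F2 at chr10:117691592-117691734 (-1.09), MTA_Mm at chr10:117700811-117701205 (-0.93), B3 at chr10:117706323-117706531 (-1.09) and B3 at chr10:117707365-117707576 (-1).

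Of the 8 calls, those of RSINE1 and B3A at 117696156 held without any single library. B3 at 117702045 was lost without G4 replicate 3 (-1.42, adjusted p = 0.0546) and ORR1A4 without WT replicate 3 (-1.11, adjusted p = 0.0755). B1F2 and B3 at 117707365 were lost without WT replicate 1 or 2 or G4 replicate 2 or 3, with values from -1.19 to -0.75 and from -1 to -0.65. MTA_Mm was lost without WT replicate 1 or 3 or G4 replicate 2 or 3, from -0.96 to -0.82, and B3 at 117706323 without WT replicate 1 or 2 or G4 replicate 2, from -1.06 to -0.81. These copies had means of 7.89 to 16.05 counts, and the direction was the same each time. The looser filter and DESeq2 also ended the calls of B1F2, MTA_Mm, B3 at 117706323 and B3 at 117707365, with adjusted p from 0.089 to 0.277. Library totals ended those of B1F2 (adjusted p = 0.0553) and B3 at 117707365 (adjusted p = 0.0598). B3 at 117707365 was lost with DESeq2 size factors in edgeR too (adjusted p = 0.0505).

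The remaining named copies of Mdm2 lay in introns and were not called in G4 against WT. Those tested were B1_Mus1 at chr10:117691821-117691949, B2_Mm2 at chr10:117692264-117692438 and chr10:117707877-117708056, B3A at chr10:117699721-117699882 and chr10:117705530-117705661, B3 at chr10:117700426-117700625 and chr10:117706812-117706994, B4A at chr10:117701233-117701318, RSINE1 at chr10:117701731-117701840 and Lx9 at chr10:117707651-117707857. Their values ran from -1.14 to -0.28. Those under the filter were IAPLTR2_Mm at chr10:117699447-117699535, PB1D9 at chr10:117699889-117699986, B3 at chr10:117700010-117700196, MER2 at chr10:117703473-117703601, B2_Mm1a at chr10:117704763-117704948 and B1_Mus2 at chr10:117708150-117708295, with means of 5 to 7.67 counts. The 19 copies below the naming limit had 1 to 42.4 counts each over all libraries.

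Cdkn1a was read mainly through an old LINE. L2c at chr17:29100537-29100717, in the 3′ UTR of Cdkn1a-201 and Cdkn1a-205, gave 88.8% of the counts, with 393, 562 and 585 in WT, 442, 401 and 448 in G1 and 323, 399 and 383 in G4. After scaling it was lower in G4 than in WT by -0.55 (SE 0.12, adjusted p = 0.000847), and WT replicate 1 stood nearest to the G4 libraries. The SINE B3A in an intron at chr17:29099085-29099203 held 28, 29 and 33 counts in WT, 20, 15 and 23 in G1 and 12, 18 and 19 in G4. Its G4 libraries all lay below WT, at -0.95 (SE 0.29, adjusted p = 0.0105), but the call was lost with the looser filter (adjusted p = 0.0891) and DESeq2 (adjusted p = 0.0505).

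Both tested copies of Cdkn1a were thus called lower, against 21.3% of all copies. B1F at chr17:29096695-29096838 and MIR at chr17:29097627-29097750, both in introns, had means of 6.56 and 5.56 counts and were not tested. The other 11 copies had 4 to 44 counts each over all libraries. The intronic copies of the gene together stood at 70 CPM in WT (SD 17.2), 46.8 in G1 (SD 4.64) and 41.7 in G4 (SD 8.81). A transcript of uncertain coding status, AC167363.2, lies in the interval on the other strand, and its reads could not be separated. The tested copies L2c and B3A lay wholly inside no gene model but that of Cdkn1a.

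Rrm2b was read through 3 SINEs of its 3′ UTR, all in transcript Rrm2b-201. B1F1 at chr15:37924396-37924508 gave 23.9% of the counts, with 6, 12 and 7 in WT, 12, 12 and 18 in G1 and 36, 34 and 33 in G4. MIRb at chr15:37926708-37926855 gave 22.5%, with 6, 1 and 4 in WT, 11, 16 and 17 in G1 and 32.5, 34 and 39 in G4. PB1D9 at chr15:37927093-37927208 gave 21.4%, with 10, 6 and 6 in WT, 14, 17 and 9 in G1 and 24.5, 29 and 37 in G4. In all 3 copies every G4 library lay above every WT and G1 library. The changes in G4 against WT were 1.96 (SE 0.35, adjusted p = 5.79e-05) for B1F1, 3.14 (SE 0.41, adjusted p = 7.85e-07) for MIRb and 1.93 (SE 0.35, adjusted p = 7.19e-05) for PB1D9.

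MIRb was the one copy of the 4 genes called in G1 against WT, at 1.95 (adjusted p = 0.00819), against 6.77% of all copies (2.41% higher and 4.36% lower). That call was lost without WT replicate 2, the library with 1 count (1.52, adjusted p = 0.0676), or G1 replicate 3 (1.75, adjusted p = 0.0535). In G4 against G1, where 38.2% of all copies were called (19% higher and 19.2% lower), 2 tested copies of Ccng1 and 4 of Mdm2 were lower, 4 of Rrm2b were higher and none of Cdkn1a was called. MIRb and PB1D9 hold 32.5 and 24.5 counts in G4 replicate 1, so part of their reads had been divided between copies. Their values in all other libraries are whole. Whether the division was between these 2 copies, which would leave the gene sum unchanged, was not tested. Keeping copies of whole values alone leaves out both, with 22.5% and 21.4% of the gene's counts. The change of Rrm2b was then 1.56 in G4 and 0.18 in G1 against WT (adjusted p = 7.74e-07 and 0.815).

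A pair of LINE-1 copies in an intron of Rrm2b made up much of the rest. L1Md_F2 at chr15:37943797-37944373 gave 14.6% of the counts, with 8, 12 and 4 in WT, 8, 7 and 5 in G1 and 13, 20 and 27 in G4. It was called at 1.22 in G4 against WT (SE 0.42, adjusted p = 0.0207), but not without WT replicate 3 (0.81, adjusted p = 0.142) or G4 replicate 3 (1, adjusted p = 0.116), nor with the looser filter (adjusted p = 0.0991) or DESeq2 (adjusted p = 0.0734). L1_Mus1 at chr15:37942666-37943251 gave 9.83%, with 7, 4 and 6 counts in WT, 3, 2 and 8 in G1 and 8, 17 and 15 in G4, and was not tested. The pair flanks Gm3362, a processed pseudogene inside that intron. Both copies hold whole values alone, and whether some of their reads also match other LINE-1 copies was not tested. The other 28 copies of Rrm2b had 1 to 6 counts each over all libraries. All 4 tested copies of Rrm2b were called higher in G4, against 21.3% of all copies called higher.

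**Figure D3:**
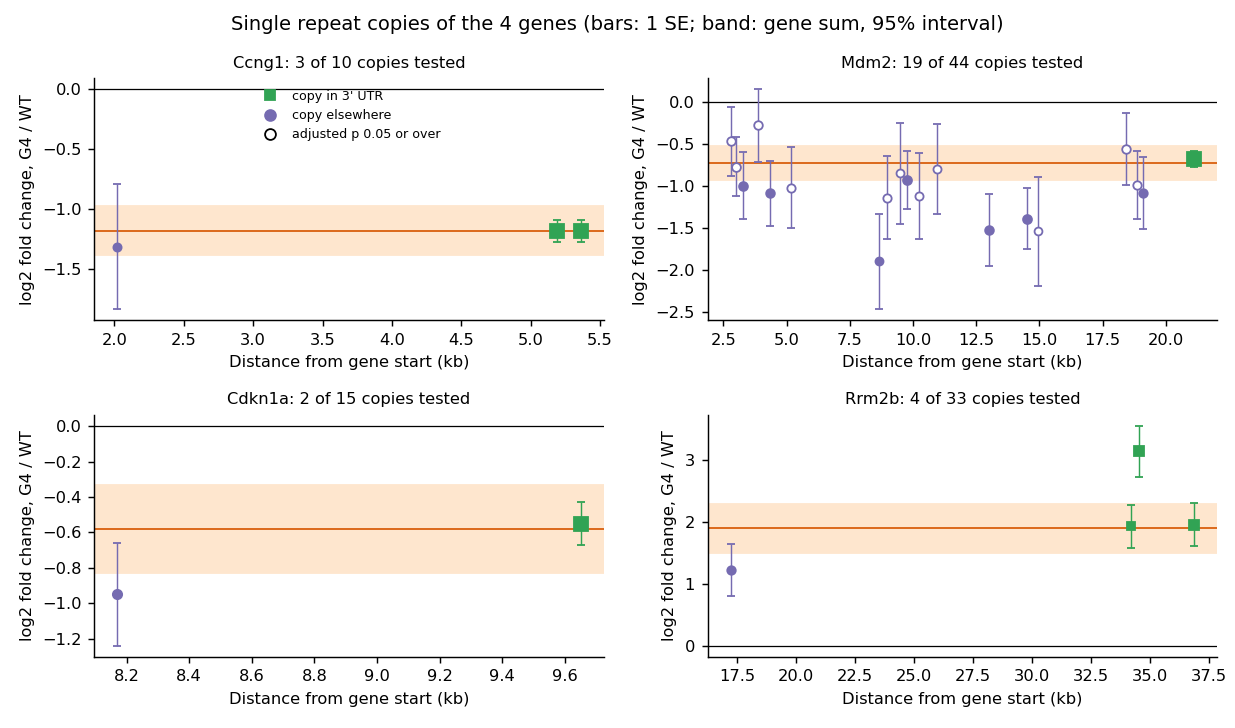
Log2 fold change in G4 against WT of each tested repeat copy (vertical axis, bars 1 SE) against its distance in kilobases from the start of its gene. Squares lie in the 3′ UTR and circles elsewhere, larger symbols hold more reads, open symbols are not called, and the line and band give the gene sum with its 95% interval. All 19 points of Mdm2 lie below 0 and all 4 of Rrm2b above.

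Copies of 1 gene were compared with each other in a separate test of each copy against the other tested copies of its gene. None of the 28 copies differed from its gene, where 1.6% of 7120 copies in genes did, and the smallest adjusted p was 0.402, for MIRb of Rrm2b. The lack of a call does not show that the copies changed alike. Sums over exonic copies and over all other copies gave -1.18 and -0.9 for Ccng1, -0.7 and -0.81 for Mdm2 and -0.56 and -0.73 for Cdkn1a in G4 against WT. The differences between the parts were -0.28 (SE 0.32), 0.12 (SE 0.18) and 0.17 (SE 0.27), with adjusted p from 0.694 to 0.783, where 7% of 2958 genes were called.

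For Rrm2b the exonic sum rose by 2.22 (SE 0.23) and the sum over other copies by 1.32 (SE 0.32), a difference of 0.9 (SE 0.4) with an adjusted p of 0.185. In G1 against WT the exonic sum of Rrm2b was called at 0.98 (SE 0.26, adjusted p = 0.0155), while the other copies stood at -0.04 (SE 0.37, adjusted p = 0.978). The difference of 1.02 (SE 0.45) was not called (adjusted p = 0.501). The intronic level of Rrm2b was 16.1 CPM in WT (SD 3.71), 14.6 in G1 (SD 3.12) and 40 in G4 (SD 12.2), and the 3′ UTR level was 19.8 (SD 3.26), 42 (SD 3.85) and 95.8 (SD 5.44). An antisense gene, Gm49085, overlaps the 5′ end of Rrm2b, and its reads could not be separated. Of the Rrm2b copies, MIR at chr15:37961794-37961959, before the gene start, lay wholly inside 2 gene models. It held 3 counts, all in G1, or 0.417% of the gene's counts. The tested copies of Rrm2b lay wholly inside no gene model but its own.

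The wider p53 pathway, as 6 lists with 128 symbols beside the 4 genes, moved in both directions. Of these symbols 110 had a repeat copy and 92 passed the filter. In G4 against WT 21 were higher and 18 lower, 42.4% in all, with a median of 0.06. In G1 against WT 1 was higher and 5 were lower, 6.52% in all, and in G4 against G1 19 were higher and 22 lower, 44.6% in all. Over all gene sums the shares were 39.8%, 5.72% and 34.6% in the same order. Those of the lists lay above them in each comparison, most in G4 against G1, and these differences were not tested. The lists were chosen with earlier results of these data known. Several genes named next were read through copies outside exons, with an exonic share of 0 for Gtse1, Dapk1, Dram1 and Slc19a2 and under 5% for Ulk1, Atr and Pot1b. With copies outside exons alone, the calls in G4 against WT of Zmat3 (-0.41), E2f7 (-0.79), Psrc1 (-0.59), Aen (-0.22), Pmaip1 (0.82), Samhd1 (0.15) and Sod2 (0.69) were lost. Those of Dapk1 (-0.84) and Slc19a2 (-0.69) were lost there as well. A call lost in this subset therefore need not mean that a gene rested on exonic copies. E2f7, for one, had an exonic share of 31.3%. The call of Sirt1 was lost with exonic copies alone (1.02, adjusted p = 0.148).

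Feedback genes and regulators of p53 other than Mdm2 and Ccng1 counted 2 higher and 4 lower of 14 tested in G4 against WT. Called were 42.9%, against 39.8% of all gene sums (20.2% higher and 19.6% lower). Ppm1d, the phosphatase that shuts off damage signalling, fell by 0.96 (adjusted p = 0.000936), read through copies outside exons alone. Zmat3, an RNA-binding target of p53, fell by 0.53 (adjusted p = 0.000389). Sirt1, a deacetylase of p53, rose by 1.12 (adjusted p = 1.88e-06). Trp53, which encodes p53 itself, stood at 83.7 CPM in WT (SD 18.3), 117 in G1 (SD 18.3) and 127 in G4 (SD 10.8). It rose by 0.61 (adjusted p = 0.00499), but the call was lost without WT replicate 3 (0.45, adjusted p = 0.0713) and with exonic copies alone (0.24, adjusted p = 0.447).

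Arrest genes other than Cdkn1a counted 0 higher and 3 lower of 7 tested, 42.9% called against 39.8% of all gene sums. Gtse1, a microtubule-bound protein that restrains p53 in G2 phase, fell by 0.8 (adjusted p = 0.000314). E2f7, a repressor of cell cycle genes, fell by 1.03 (adjusted p = 0.00242). Psrc1, which acts on spindle microtubules, fell by 0.55 (adjusted p = 0.0164), with the call lost without G4 replicate 3 (-0.38, adjusted p = 0.148).

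Cell death genes counted 2 higher and 4 lower of 18 tested, 33.3% called against 39.8% of all gene sums. Tnfrsf10b, the mouse receptor for the death ligand TRAIL, fell by 1.29 (adjusted p = 3.32e-12) from 962 CPM in WT (SD 98) to 393 in G4 (SD 63.8). Apaf1, the core of the apoptosome, fell by 1.1 (adjusted p = 1.82e-09). Aen, a p53-induced exonuclease, fell by 0.54 (adjusted p = 8.05e-05). These 3 were also called lower in G1 against WT, at -0.59 for Tnfrsf10b, -0.48 for Apaf1 and -0.4 for Aen. In G1 the call of Aen was lost without WT replicate 2 or 3 or G1 replicate 2 or 3 (adjusted p up to 0.0901), that of Apaf1 without G1 replicate 2 (adjusted p = 0.0575) or its leading copy (adjusted p = 0.0688), and that of Tnfrsf10b outside exons (-0.22). Dapk1, a death-associated kinase, fell by 0.87 (adjusted p = 0.0365), with the call lost without WT replicate 1 or G4 replicate 1 or 2 (-0.8 to -0.76), with library totals and with DESeq2 (adjusted p = 0.0528 and 0.0759). Pmaip1, which encodes the BH3 protein Noxa, rose by 0.46 (adjusted p = 0.000198) from 2912 CPM in WT (SD 102) to 4000.3 in G4 (SD 571). Its call was lost with copies of whole values alone (0.81, adjusted p = 0.0941).

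Repair and nucleotide supply genes other than Rrm2b counted 5 higher and 2 lower of 15 tested, 46.7% called against 39.8% of all gene sums. Dut, which clears dUTP from the nucleotide pool, rose by 1.2 (adjusted p = 1.73e-06). Samhd1, which breaks down deoxynucleotides, rose by 0.59 (adjusted p = 0.0131), with the call lost without WT replicate 3 (0.45) or G4 replicate 3 (0.55), and it stood at 0.22 without its leading copy (adjusted p = 0.687). Polk, a translesion polymerase, fell by 1.2 (adjusted p = 7.58e-08) and was also lower in G1, at -0.5 (adjusted p = 0.0435). The G1 call of Polk was lost without WT replicate 2 or 3, any G1 replicate or G4 replicate 3 (-0.53 to -0.39, adjusted p up to 0.255), with a replicate block (adjusted p = 0.0537), with DESeq2 (adjusted p = 0.0511) and without its leading copy (-0.16, adjusted p = 0.819). Ercc5, a nucleotide excision repair nuclease with reads outside exons alone, fell by 1.72 (adjusted p = 0.000122).

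Metabolism and antioxidant genes counted 4 higher and 4 lower of 15 tested, 53.3% called against 39.8% of all gene sums. Ulk1, a kinase that starts autophagy, rose by 2.32 (adjusted p = 1.97e-08), and Sod2, the mitochondrial superoxide dismutase, by 0.94 (adjusted p = 1.14e-07). Dram1, a lysosomal protein of autophagy, fell by 2.76 (adjusted p = 1.36e-10), and Sesn3, a sestrin, by 1.54 (adjusted p = 1.11e-09). Lif, the cytokine that keeps mouse ESCs undifferentiated, rose by 1.15 (adjusted p = 2.83e-05), and Eda2r, a receptor of the TNF family, fell by 1.64 (adjusted p = 2.05e-15); neither is a metabolic enzyme. In G1 against WT Sod2 was called higher at 0.49 and Eda2r lower at -0.51. The call of Sod2 there was lost without WT replicate 2 (0.42, adjusted p = 0.102) or G1 replicate 1 or 2 (adjusted p = 0.0837 and 0.0508). Slc19a2, a thiamine transporter, was called in G4 against WT at -0.72 (adjusted p = 0.0481), and that call was lost without WT replicate 1 or 3, G1 replicate 2 or 3, or G4 replicate 1 or 3, with values from -0.82 to -0.4. It was also lost in a fit of WT and G4 alone, with other scalings, with DESeq2 and without its leading copy (-0.55, adjusted p = 0.169).

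Genes that signal damage to p53 counted 8 higher and 1 lower of 23 tested, with a median of 0.27. These are 39.1% called, against 39.8% of all gene sums (20.2% higher and 19.6% lower). The uneven split of directions was not tested. Mdc1, the mediator that binds marked chromatin at breaks, rose by 1.18 (adjusted p = 3.35e-12) from 428 CPM in WT (SD 20) to 972 in G4 (SD 47.5). The kinases Chek1, Chek2 and Atr rose by 1.2, 1.08 and 0.82 (adjusted p = 2.25e-05, 4.86e-08 and 0.000205). Pot1b, a shelterin protein of telomere ends, fell by 1.03 (adjusted p = 0.00142) but stood at -0.27 without its leading copy (adjusted p = 0.577). None of the 23 genes was called in G1 against WT, where 5.72% of all gene sums were.

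**Figure D4:**
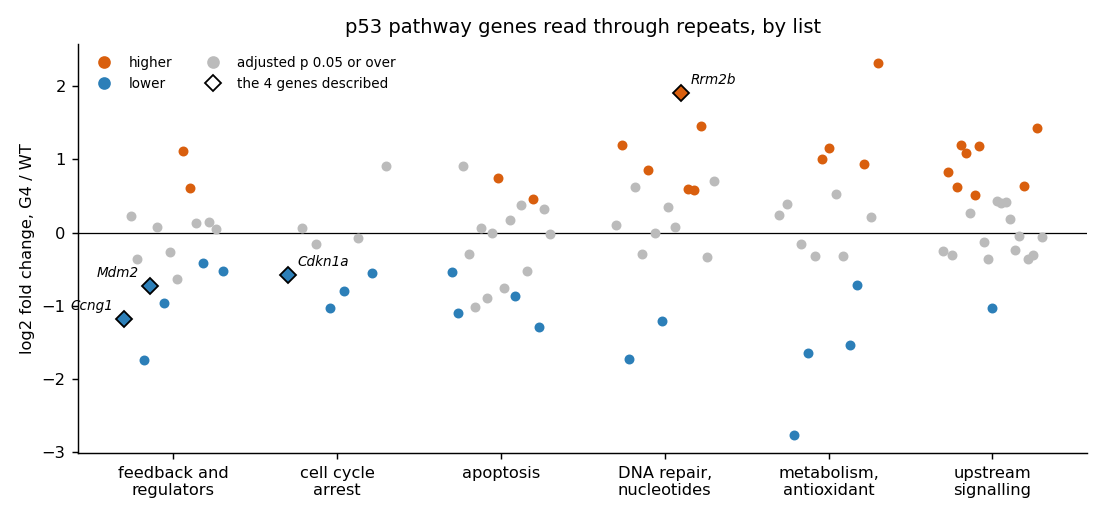
Log2 fold change in G4 against WT (vertical axis) of each tested gene of 6 p53 pathway lists, 1 point a gene. Orange points were called higher, blue lower and grey not called, and diamonds mark Ccng1, Mdm2, Cdkn1a and Rrm2b. The upstream signalling list holds 8 orange points and 1 blue, while over all lists 21 were higher and 18 lower beside the 4 diamonds.

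The genes whose pattern was most like each of the 4 were sought among 3813 genes by the root-mean-square (RMS) difference of centred log2 CPM over the 9 libraries, where 0 is an identical pattern. For Ccng1 they were Exoc4 (0.075), Tor1aip2 (0.089) and Rlim (0.089). For Mdm2 they were Opa3 (0.08), Jade1 (0.08) and Utp15 (0.086), and for Cdkn1a Tulp2 (0.105), Tceal8 (0.111) and Alyref (0.112). For Rrm2b they were Sgk1 (0.175), Dmc1 (0.179) and Bcat1 (0.18). None of the 4 genes was among the 3 most like another. Mdm2 and Ccng1 differed by 0.195, Mdm2 and Cdkn1a by 0.202 and Ccng1 and Cdkn1a by 0.332, and Rrm2b differed from them by 1.022 to 1.287.

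The medians of the genes around the 4 lay nearer to 0 than the genes' own changes. In G4 against WT the median over the other gene sums of the chromosome was 0.07 for Ccng1 on chromosome 11, -0.03 for Mdm2 on 10, 0.11 for Cdkn1a on 17 and 0.02 for Rrm2b on 15. Within 2 Mb of each gene the medians were 0 over 5 genes, 0 over 16, 0.29 over 50 and -0.22 over 23. Around Cdkn1a 15 neighbours were called higher and 2 lower, and around Rrm2b 7 higher and 5 lower.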

How the data were processed

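RNA of 9 ESC libraries, 3 each of WT, G1 and G4 Terc-/-, was analysed. The deposited values are estimated counts per repeat copy on mm10. Per the submitters' processing notes, FastQC 0.11.9, STAR 2.5.3a and featureCounts were used by the authors, and how shared reads were divided is not given in the sources used here. The deposited normalized table was not used. Counts were rounded and summed over the copies inside each GENCODE M21 gene model (the 4 genes: widened to full kilobases), passed through filterByExpr, normalised by TMM with library sizes of the whole table, and tested two-sided in edgeR 4.0.16 (R 4.3.3) with quasi-likelihood, no replicate block and Benjamini-Hochberg adjustment. Copies were tested against their gene, and exonic against other copies, with diffSpliceDGE. A copy is exonic when at least 0.5 of its length lies in exons. Copies were named at a mean of at least 5 counts, listed genes (except some not reported here) by the 4 largest rises and falls per list among calls with a mean of at least 20, and like genes at a mean of at least 50. The genes and lists were chosen with earlier results of these data known. The scripts were tested on simulated data. Library totals ran from 918879 to 1137257 counts. Alternatives were DESeq2 1.42.0, other scalings, filters, fits and subsets of copies, and each library left out.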

Additional observations from a re-analysis of the deposited data

Results flagged for a closer look

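For 3 of the 4 genes the change against WT differed between the G4 and G1 Terc-/- cells, by the test of G4 against G1 in edgeR. The change in G4 minus that in G1 was -0.91 on the log2 scale for Ccng1 (adjusted p = 3.26e-09), -0.66 for Mdm2 (adjusted p = 1.17e-06) and 1.26 for Rrm2b (adjusted p = 6.74e-07), and in each gene all 3 G4 libraries lay beyond all 3 G1 libraries. Over all gene sums 34.6% were called and 45.3% did not overlap in that comparison. Groups of 3 were not tested for single libraries that stand apart.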

How the results depend on the processing

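In G4 against WT the changes of Ccng1, Mdm2, Cdkn1a and Rrm2b kept their direction under every alternative run, and their calls under all but the study's rule (a change of over 2-fold and p under 0.05, unadjusted), which Mdm2 at -0.73 and Cdkn1a at -0.58 do not pass. With 1 library left out they ran from -1.26 to -1.07, -0.76 to -0.66, -0.71 to -0.48 and 1.74 to 1.97. In G4 against G1 that rule also ends the calls of Ccng1 (-0.91) and Mdm2 (-0.66), and copies outside exons end that of Ccng1 (-0.61). Cdkn1a was called there with the looser filter (-0.3) and with exonic copies (-0.37), and ran from -0.4 to -0.19 with 1 library left out. In G1 against WT Ccng1 was called with library totals (-0.25), 2 groups alone (-0.27) and exonic copies (-0.22), and ran from -0.32 to -0.24 with 1 library left out; Cdkn1a ran from -0.45 to -0.19. With exonic copies Rrm2b was called (1.04) and Mdm2 turned to 0.02; outside exons Rrm2b turned to -0.07. The Mdm2 RSINE1 copy at 117689541 turned from -0.02 to 0 with 2 groups alone and ran from -0.06 to 0.02 with 1 library left out. Sparc turned with exonic copies, to 2.02 in G4 and 0.5 in G1 against WT, and to -0.43 in G4 against G1 without its leading copy. In G4 against G1 Sirt1 turned to -0.23 with exonic copies. The cause was not tested.

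Of gene sums 4174 were called in G4 against WT, 600 in G1 against WT and 3636 in G4 against G1. These became 2496 in G4 against WT and 2049 in G4 against G1 under the study's rule, 2190 and 1938 for the same comparisons with exonic copies, and with copies outside exons 2538, 246 in G1 against WT, and 2134. Without the leading copy 296 were called in G1 against WT, and with 1 library left out 386 to 727. For single copies in G1 against WT, DESeq2's Wald test called 587 against 899. Copies called against their gene were 114, and 60 to 133 with 1 library left out. Fewer copies enter the subsets.

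No pairing by replicate number was seen, though with 3 libraries per group it could have been missed. Libraries with the same number correlated at -0.099 to 0.082 over 9 pairs, and 3 of 9 correlated best with their own number. With a replicate block the changes in G4 against WT were -1.18, -0.73, -0.58 and 1.89, no call of the 4 genes changed in any comparison, and 4093, 570 and 3536 gene sums were called. Small changes could be missed at this depth and number of libraries. In simulated gene sums of G4 against WT, over 10042 genes, folds of 1.5, 2 and 4 were recovered for 22.4%, 55.2% and 95.5%. The simulation changed a far smaller share of genes than was called in the data, drawn at random over all levels. Its rates therefore need not hold for the 4 genes. Leaving out the leading copy, keeping to the gene models' own limits and testing exonic against other copies were chosen after the data were seen.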
